A study of Mus musculus with 4 samples.

Results

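The amino acid transporter genes described here are those of the Slc1, Slc3, Slc7, Slc38 and Slc43 families, taken by gene name from the deposited count table, which holds 55228 genes. The rule gave 37 genes and left out Slc38a4, which is imprinted. The rule itself uses gene names only, but the families were chosen with earlier results of these data known. Of the 37, 27 had at least 20 counts over the 4 libraries and all 27 were tested. The data are total RNA libraries from rib cartilage cells of mouse embryos of strain C57BL/6 at embryonic stage E17.5. There were 2 libraries of wild-type (WT) genotype and 2 labelled as Trim28 knockout (Trim28 KO), and the comparison asked which transcripts differ between them. How the knockout was made, in which cells it acts, and whether each library is 1 embryo or a pool is not given in the sources used here, and p-values therefore measure only how far these libraries spread, which may be technical.

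Amino acid transporters are membrane proteins that carry amino acids across the plasma membrane or out of organelles such as lysosomes. Slc1 proteins carry glutamate, aspartate or small neutral amino acids. Many Slc7 proteins work as light chains that need a heavy chain, Slc3a1 or Slc3a2, to reach the cell surface, whereas the cationic transporters of the Slc7 family work alone and carry arginine and lysine. Slc38 proteins couple neutral amino acids such as glutamine and alanine to sodium, and Slc43 proteins include facilitated transporters of leucine and other large neutral amino acids. Cartilage cells secrete collagen, which is rich in glycine and proline, and so draw on a large supply of amino acids. TRIM28 represses genes as a partner of DNA-binding zinc finger proteins.

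Library totals ran from 18616896 to 20082123 counts. Trim28, the targeted gene, stood at 225 and 186 CPM in the WT libraries and at 51.1 and 54.5 CPM in the Trim28 KO libraries (CPM is a count relative to the library total, here after scaling the totals with TMM factors, from the trimmed mean of M-values), which matched the labels of all 4. Chondrocyte markers marked all libraries: the summed CPM of 10 such genes was 85578 to 112252 in WT and 81507 to 104336 in Trim28 KO, and 1 of the 10, Cnmd, fell. Markers of several other cell types differed between the genotypes. Of the osteoblast markers, 7 of 8 fell (22251 to 38466 CPM in sum in WT, 8494 to 12289 in Trim28 KO). Of the osteoclast markers, 7 of 7 tested fell (848 to 1020 and 226 to 227 CPM), as did 6 of 6 tested erythroid markers (255 to 349 and 75.5 to 81.7 CPM). Of the macrophage markers, 6 of 8 rose (118 to 120 and 253 to 414 CPM). Of 5 tested neutrophil markers, Ltf and Mpo fell. The sum over the 7 listed neutrophil markers was 3.29 CPM in WT 1, 24.5 CPM in WT 2 and 0.853 to 1.44 CPM in Trim28 KO. The WT libraries thus differed widely, with the uncalled S100a9 at 0.637 and 10.2 CPM. Of the endothelial markers, 0 of 7 were called (432 to 511 and 368 to 420 CPM). Of 8 skeletal muscle markers, Myog rose and Tnnt3 fell, with sums of 588 to 754 CPM in WT and of 1104 CPM in Trim28 KO 1 against 419 CPM in Trim28 KO 2. No measured gene of these 8 lists was at 0 in all 4 libraries. In such bulk samples, fewer cells of a type and less RNA per cell cannot be told apart, and the part of these cell types in the results that follow was not tested.

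Of the 27 transporter genes, 8 rose and 3 fell in Trim28 KO at an adjusted p under 0.05 by edgeR's quasi-likelihood test, and 16 did not pass the test. Over all 16639 genes tested, 8.64% were called higher and 8.77% lower, 17.4% in all, while 29.6% of the 27 transporter genes rose and 11.1% fell. The risen genes were Slc1a4, Slc7a3, Slc7a2, Slc7a5, Slc38a1, Slc1a3, Slc7a1 and Slc3a2. The fallen genes were Slc38a9, Slc43a1 and Slc38a3. The median log2 fold change of the 27 genes was -0.03, against -0.02 for all genes tested. This median depended on single libraries and on low genes: it was 0.13 without WT 1, 0.24 without WT 2, 0.14 without Trim28 KO 1 and 0.24 with a filter of 5 CPM in 2 libraries, while that of all genes stayed between -0.04 and 0.02 in these fits and without Trim28 KO 2. The libraries of the 2 genotypes did not overlap for 20 of the 27 genes, a lack of overlap seen in 58.0% of all genes tested. The calls rested in part on single libraries, since 6 to 9 transporter genes were called higher and 1 to 3 lower when 1 library was left out.

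**Figure D1:**
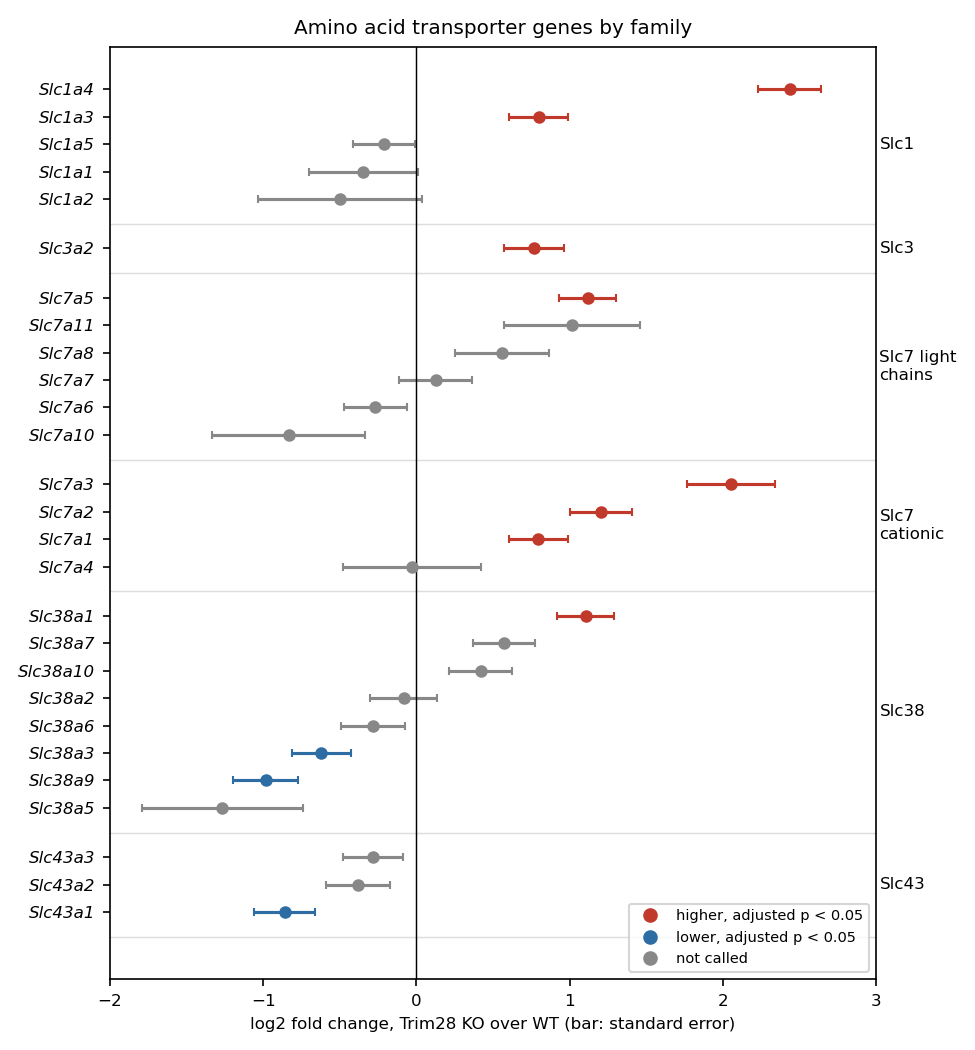
Log2 fold change of Trim28 KO over WT for the 27 transporter genes with at least 20 counts, grouped by family and role, each point with its standard error (n = 2 libraries per genotype), red for genes called higher, blue for genes called lower and grey for the rest. The largest rise was that of Slc1a4 (2.43), and 3 of the 4 cationic transporters rose, beside 8.64% of all genes tested.

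Promoter windows are shown for 3 of the called genes, because they include the gene with the largest rise (Slc1a4), a risen cationic transporter (Slc7a1) and a fallen gene whose window held 2 of the motifs searched (Slc43a1). Each is the 250 bases before the RefSeq transcript start, read 5′ to 3′ on the strand of the gene, from build GRCm38.p6. Capitals mark matches to the motifs named below, and a window with no capitals held none.
Slc1a4, minus strand, chr11:20332714-20332963: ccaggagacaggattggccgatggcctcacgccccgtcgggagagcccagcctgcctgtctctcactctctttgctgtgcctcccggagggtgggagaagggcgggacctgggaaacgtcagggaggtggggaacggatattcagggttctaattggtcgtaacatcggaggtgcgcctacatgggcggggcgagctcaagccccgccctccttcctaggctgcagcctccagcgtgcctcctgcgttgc
Slc7a1, minus strand, chr5:148399905-148400154: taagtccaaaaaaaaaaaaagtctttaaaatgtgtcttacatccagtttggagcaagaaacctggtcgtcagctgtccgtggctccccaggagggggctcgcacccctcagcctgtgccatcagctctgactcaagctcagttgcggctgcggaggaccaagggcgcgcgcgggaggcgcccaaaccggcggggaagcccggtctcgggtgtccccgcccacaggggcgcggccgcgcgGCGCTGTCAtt
Slc43a1, plus strand, chr2:84840073-84840322: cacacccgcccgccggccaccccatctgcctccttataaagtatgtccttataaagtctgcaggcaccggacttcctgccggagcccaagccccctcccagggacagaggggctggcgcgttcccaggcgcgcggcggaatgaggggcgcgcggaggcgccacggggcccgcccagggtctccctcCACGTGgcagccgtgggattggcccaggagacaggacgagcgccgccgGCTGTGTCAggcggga

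The first motif was TGATGNAAT, a form of the C/EBP-ATF response element bound by ATF4 with a partner. Its last base was fixed as T, and forms with another last base were not searched. The others were TCACGTGA, a palindromic E-box bound by MiT/TFE factors, and CACGTG, the E-box core that is part of it. The last was TGACNNNGC, the core of the antioxidant response element. Both strands of the window from 250 bases before to 50 after the start were searched. RefSeq windows were matched for 27 of the 37 transporter genes (36 windows, some of which overlap within a gene), among them 6 of the 11 called genes, and compared with all 32851 windows of that length. The called genes Slc7a2, Slc7a3, Slc7a5, Slc38a1 and Slc38a3 had no window, so their promoters were not searched. TGATGNAAT was in 0 of the 36 windows and in 0.965% of all windows, and TCACGTGA in 0 of 36 and 0.974%. For example, the Slc7a11 window holds TGATGCAAA on both strands, and Slc7a7 windows hold TGATGCAAC and TGATGAAAG. These differ from TGATGNAAT in the last base and were not counted, and other such forms were not listed. CACGTG was in 6 of 36 windows (7.15% of all), which belong to Slc43a1, Slc38a7, Slc38a5, Slc1a6, Slc1a7 and Slc7a14. TGACNNNGC was in 5 of 36 windows (12.4% of all), which belong to Slc43a1, Slc7a1, Slc38a2 and Slc7a6, the last with 2 overlapping windows that share the match. A match is a description of these letters only. The median GC content of the 250 bases before the start was 60.0% over the 7 windows of called genes and 52.4% over all windows. It was 61.4% over the 26 windows of transporter genes with at least 20 counts, called or not. The range among the 7 was from 44.8% (Slc1a3) to 70.8% (Slc43a1). The RefSeq starts of Slc43a1 and Slc3a2 lie well inside the longer GENCODE loci of these genes, so each window covers 1 of several possible starts. For Slc3a2 the window is chr19:8713898-8714147, in a minus-strand locus that ends at 8723369. RefSeq also gives Slc7a1 a second start, whose 250-base window (chr5:148392816-148393065) held none of the motifs.

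Among the Slc1 genes, Slc1a4 and Slc1a3 rose and Slc1a5, Slc1a1 and Slc1a2 did not pass the test. That is 40% higher, beside 8.64% of all genes tested, and so few genes give a coarse share. Slc1a4 encodes ASCT1, an exchanger of alanine, serine, cysteine and threonine. It lies on the minus strand of chromosome 11 (20302180 to 20332713) of GRCm38. Its level was 40.4 and 44.4 CPM in WT 1 and WT 2 and 215 and 243 CPM in Trim28 KO 1 and Trim28 KO 2. Both knockout libraries thus stood far above both WT libraries, and the spread within each genotype was small beside the gap. The level rose 5.40-fold, a log2 fold change of 2.43 ± 0.21 (standard error, 2 libraries per genotype, edgeR adjusted p = 9.31e-09), the largest of any transporter gene here. No alternative ended this call, and its log2 fold change ran from 2.35 to 2.53 across them.

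Slc1a3 encodes a glutamate and aspartate transporter, GLAST, best known from astrocytes, and lies on the minus strand of chromosome 15 (8634124 to 8710764). It stood at 24.5 and 33.4 CPM in WT and at 50.2 and 50.5 CPM in Trim28 KO. The genotypes did not overlap, and the WT libraries differed more from each other than the knockout libraries did. The rise was 1.74-fold (0.80 ± 0.19, adjusted p = 0.00533), and the call was lost without Trim28 KO 1 (adjusted p = 0.0528). Slc1a3 is also expressed by Schwann cells, whose markers summed to 27.6 to 41.6 CPM in WT and to 13.5 to 17.6 CPM in Trim28 KO. Of these markers, 3 of 6 were called lower and none was at 0 in all libraries. Macrophage markers rose, as given above. The part of Schwann cells, macrophages or any other cell type in the values of Slc1a3 was not tested.

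Slc1a5 encodes ASCT2, a glutamine exchanger related to ASCT1. It stood at 61.4 and 41.1 CPM in WT and at 44.2 and 44.2 CPM in Trim28 KO, so that both knockout values lay between the WT values (log2 fold change of -0.21 ± 0.20, adjusted p = 0.519). Per kilobase of exon, a scale that allows for the length of a gene's exons, the level of Slc1a4 was 0.698 and 1.15 times that of Slc1a5 in the WT libraries and 5.18 and 5.84 times in the knockout libraries. In WT, Slc1a4 made up 36.2% and 43.9% of the summed level per kilobase of the Slc1 genes, and in Trim28 KO 76.5% and 78.4%. That sum was 28.4 and 25.6 CPM per kb in WT and 71.5 and 79.0 CPM per kb in Trim28 KO.

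The neuronal glutamate transporter gene Slc1a1 was low, at 3.50 and 4.09 CPM in WT and 1.80 and 4.17 CPM in Trim28 KO. The knockout libraries disagreed and the second matched WT. Of the exon bases of Slc1a1, 31.9% also belong to another gene, 4430402I18Rik, and reads there were not counted. Slc1a2, the main glutamate transporter of astrocytes, had between 7 and 18 counts per library. Slc1a6 and Slc1a7 had 10 and 5 counts over all libraries.

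**Figure D2:**
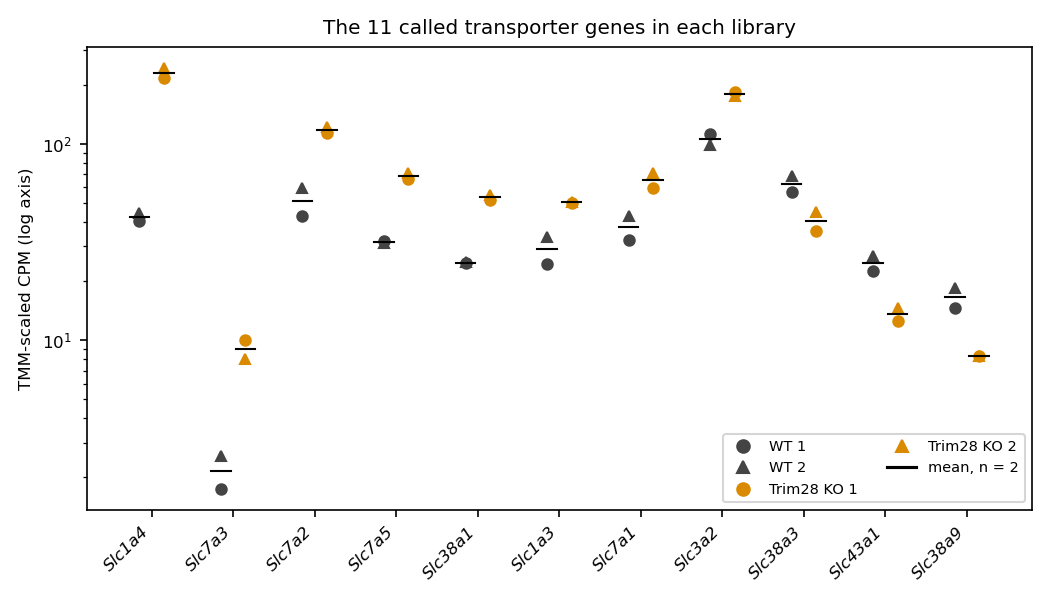
TMM-scaled CPM on a log axis of the 11 called transporter genes in each library, with WT in grey and Trim28 KO in orange, circles for replicate 1, triangles for replicate 2 and a line at the mean of 2 libraries. For each gene the libraries of the 2 genotypes do not overlap, with the widest gap for Slc1a4 (40.4 and 44.4 CPM against 215 and 243 CPM). The genes were picked by the test on these same libraries, so the lack of overlap adds no support, and 58.0% of all genes tested show it.

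Of the heavy chains, Slc3a2 rose and Slc3a1 was near absent, with 5 counts over all libraries. Slc3a2 encodes 4F2hc, also called CD98, the heavy chain that carries 6 of the light chains described here to the cell surface. It lies on the minus strand of chromosome 19 (8706882 to 8723369). Its level was 112 and 99.1 CPM in WT and 183 and 175 CPM in Trim28 KO. The groups did not overlap. It rose 1.70-fold (0.77 ± 0.20, adjusted p = 0.00776), and leaving out Trim28 KO 1 ended this call (adjusted p = 0.0690).

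Of the 6 light chains described, Slc7a5 rose and the other 5 did not pass the test. That is 16.7% higher, beside 8.64% of all genes tested. Slc7a5 encodes LAT1, which brings leucine and other large neutral amino acids into cells in exchange for glutamine, and lies on the minus strand of chromosome 8 (121881150 to 121907694). It stood at 32.1 and 31.1 CPM in WT and at 66.4 and 70.7 CPM in Trim28 KO. Replicates were close in both genotypes, and the groups were far apart. The rise was 2.17-fold (1.12 ± 0.19, adjusted p = 1.29e-04), and the call held under every alternative run, with log2 fold changes from 1.08 to 1.18.

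Slc7a6, which encodes the light chain y+LAT2, stood at 32.8 and 49.6 CPM in WT and 31.1 and 37.3 CPM in Trim28 KO, an overlap (-0.27 ± 0.21, adjusted p = 0.415). Slc7a7, the light chain y+LAT1, which exports cationic amino acids and is also known from macrophages, stood at 6.43 and 7.27 CPM in WT and 7.21 and 7.73 CPM in Trim28 KO (0.12 ± 0.24). Slc7a8, the light chain LAT2, stood at 3.35 and 2.88 CPM in WT and 5.46 and 3.71 CPM in Trim28 KO (0.56 ± 0.31, adjusted p = 0.232). The groups overlapped for Slc7a7 and did not for Slc7a8, whose knockout libraries were spread as widely as the genotypes were apart.

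Slc7a11 encodes xCT, which imports cystine in exchange for glutamate. It had 15 and 15 counts in WT and 33 and 29 in Trim28 KO, a log2 fold change of 1.02 ± 0.44 that was not called (adjusted p = 0.121). At this depth a doubling of so low a gene was not told from the spread. Slc7a10, a transporter of small neutral amino acids including serine, had 25 and 17 counts in WT and 10 and 14 in Trim28 KO (-0.83 ± 0.50, adjusted p = 0.275), and 17.9% of its exon bases belong also to Lrp3. The light chains Slc7a9, Slc7a12 and Slc7a15 had no count in any library, where 3 counts would be 0.151 to 0.159 CPM, and Slc7a13 had 1.

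Set beside each other per kilobase of exon, Slc3a2 was more abundant than its 6 light chains together in every library. The level of Slc3a2 was 31.6 and 28.1 CPM per kb in WT and 52.0 and 49.6 in Trim28 KO, and the summed level of the light chains 19.1 and 22.5 in WT and 28.4 and 30.7 in Trim28 KO. The ratio of heavy to light chains was 1.65 and 1.25 in WT and 1.83 and 1.61 in Trim28 KO, values that overlap. The makeup of the light chains differed more. Slc7a5 made up 45.2% and 37.3% of the light-chain sum in WT and 63.2% and 62.0% in Trim28 KO, while Slc7a6 made up 37.6% and 48.3% in WT and 24.0% and 26.6% in Trim28 KO.

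**Figure D3:**
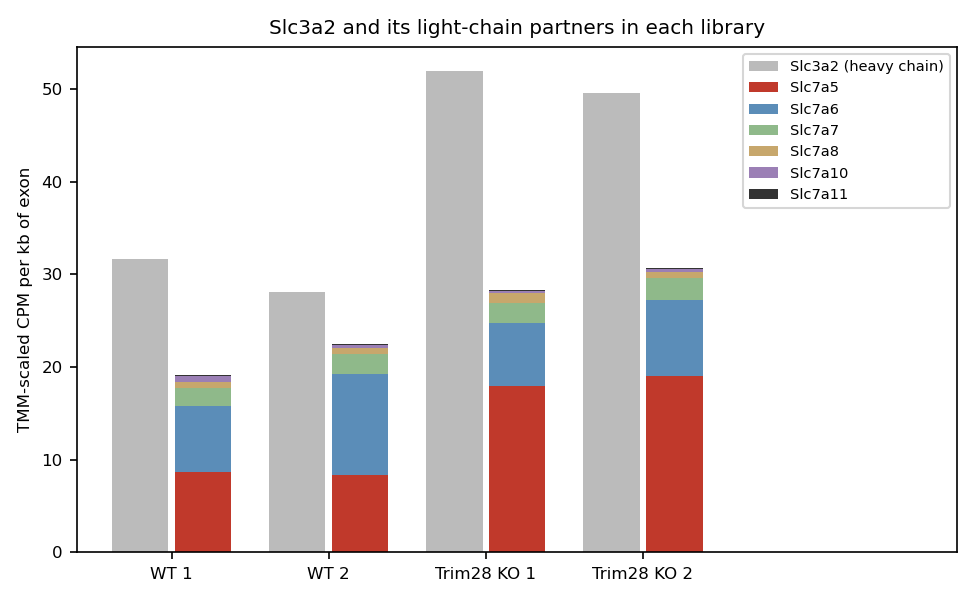
Level per kilobase of exon of the heavy chain Slc3a2 (grey bar) and of its 6 light-chain partners (stacked bar) in each of the 4 libraries, in TMM-scaled CPM per kb. The grey bar is the taller one in each library, and the Slc7a5 share of the stack is 45.2% and 37.3% in WT and 63.2% and 62.0% in Trim28 KO.

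The cationic transporters rose in 3 of 4 cases, or 75%, beside 8.64% of all genes tested, though 4 genes give a coarse share. Slc7a2 encodes CAT2, a carrier of arginine and lysine, and lies on the plus strand of chromosome 8 (40862396 to 40922308). It stood at 43.1 and 59.2 CPM in WT and at 114 and 122 CPM in Trim28 KO. Both knockout libraries lay above the higher WT library. The rise was 2.30-fold (1.20 ± 0.20, adjusted p = 1.71e-04) and the call held under every alternative run (1.02 to 1.48). The part of macrophages, whose markers rose as given above, or of any other cell type in this rise was not tested.

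Slc7a1 encodes CAT1, the widely expressed arginine and lysine transporter, and lies on the minus strand of chromosome 5 (148327410 to 148399904). It stood at 32.5 and 42.6 CPM in WT and at 59.3 and 71.2 CPM in Trim28 KO. The groups did not overlap, and replicates differed by a similar amount in both. It rose 1.74-fold (0.80 ± 0.20, adjusted p = 0.00569), and the call was lost without Trim28 KO 2 (adjusted p = 0.0961).

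Slc7a3 encodes CAT3, a cationic transporter best known from brain, and lies on the minus strand of chromosome X (101079210 to 101086020). It had 33 and 51 counts in WT and 195 and 159 in Trim28 KO, or 1.75 and 2.58 CPM against 10.04 and 7.98 CPM. The lower knockout library was well above the higher WT library, though the gene stayed among the less abundant ones. The rise was 4.15-fold (2.05 ± 0.29, adjusted p = 1.64e-05), the second largest here, and the call held under every alternative run (1.83 to 2.39). Markers of neurons were few and low, at 8.54 to 13.1 CPM in sum in WT and 5.20 to 5.67 CPM in Trim28 KO. Of the 6 neuron markers, 2 could be tested, of which 1 fell, and 1 was at 0 in all libraries. The part of neurons, of macrophages, whose markers rose, or of any other cell type in the values of Slc7a3 was not tested.

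Slc7a4, a member of this group with no established transport function, stayed near 1 CPM in each library, with 19 to 22 counts (-0.03 ± 0.45, adjusted p = 0.976). Slc7a14, a lysosomal relative, had 2 counts over all libraries. By level per kilobase, Slc7a2 was the most abundant of the cationic transporters in both genotypes, with 57.0% and 58.5% of the summed level of Slc7a1 to Slc7a4 in WT and 60.7% and 61.1% in Trim28 KO. The share of Slc7a1 was 34.1% and 33.3% in WT and 25.1% and 28.2% in Trim28 KO, and that of Slc7a3 5.59% and 6.14% in WT and 13.0% and 9.62% in Trim28 KO.

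Among the Slc38 genes, Slc38a1 rose, Slc38a9 and Slc38a3 fell and 5 did not pass the test. That is 12.5% higher and 25% lower, beside 8.64% and 8.77% of all genes tested. Slc38a1 encodes SNAT1, a sodium-coupled importer of glutamine and alanine, and lies on the minus strand of chromosome 15 (96571418 to 96642913). It stood at 24.7 and 25.0 CPM in WT and at 52.0 and 54.7 CPM in Trim28 KO. The replicates nearly coincided. It rose 2.15-fold (1.10 ± 0.18, adjusted p = 1.44e-04), a call that held under every alternative run (1.07 to 1.17).

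Slc38a2 lies near Slc38a1 on chromosome 15, from 96687392 to 96699730, and encodes SNAT2, a related importer known to respond to amino acid shortage. It was the most abundant transporter gene in WT on both scales, at 301 and 443 CPM, and stood at 327 and 375 CPM in Trim28 KO. Both knockout values lay inside the WT range (-0.08 ± 0.22, adjusted p = 0.841). Per kilobase, Slc38a1 was at 0.042 and 0.029 times the level of Slc38a2 in WT and at 0.082 and 0.075 times in Trim28 KO.

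Slc38a9 encodes a lysosomal protein that senses arginine and passes the signal to the Rag GTPases and mTORC1, and lies on the plus strand of chromosome 13 (112660751 to 112738749). It stood at 14.6 and 18.4 CPM in WT and at 8.34 and 8.33 CPM in Trim28 KO. The knockout libraries coincided below both WT libraries. It fell 1.98-fold (-0.98 ± 0.21, adjusted p = 0.00205), and the call held under every alternative run (-1.12 to -0.78).

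Slc38a3 encodes SNAT3, a sodium-coupled carrier of glutamine, asparagine and histidine, and lies on the minus strand of chromosome 9 (107650634 to 107669530). It stood at 56.5 and 68.2 CPM in WT and at 36.1 and 44.9 CPM in Trim28 KO. The groups did not overlap, but the gap between them was about the size of the spread within them. The fall was 1.54-fold (-0.62 ± 0.19, adjusted p = 0.0262), and the call was lost without WT 2 (adjusted p = 0.158), without Trim28 KO 1 (0.304) and without Trim28 KO 2 (0.0575).

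Slc38a7, which encodes an exporter of glutamine from lysosomes, stood at 14.8 and 12.6 CPM in WT and at 19.0 and 21.7 CPM in Trim28 KO. It lay close to the threshold without passing it (0.57 ± 0.20, adjusted p = 0.0522). Slc38a10, a broadly expressed member, stood at 214 and 165 CPM in WT and 247 and 260 CPM in Trim28 KO (0.42 ± 0.21, adjusted p = 0.170). Slc38a6 stood at 12.6 and 13.8 CPM in WT and 10.2 and 11.5 CPM in Trim28 KO (-0.28 ± 0.21, adjusted p = 0.397). For each of these 3 genes the genotypes did not overlap.

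Slc38a5 encodes SNAT5, a carrier of glutamine, asparagine, histidine and serine. It had 15 and 28 counts in WT and 8 and 10 in Trim28 KO (-1.27 ± 0.53, adjusted p = 0.103), at a depth that gave a wide error. Slc38a8 had 3 counts and Slc38a11 had 14 over all libraries. Slc38a11 was the highest of the genes below 20 counts, and Slc1a2, at 55, the lowest of those above. The summed level per kilobase of the Slc38 genes was 86.0 and 96.8 in WT and 91.9 and 102 in Trim28 KO. These sums overlap, whereas those of the Slc1 and Slc7 genes were higher in both knockout libraries (27.4 and 33.6 for Slc7 in WT, 48.8 and 52.7 in Trim28 KO). The Slc43 sum was lower in both, at 24.8 and 30.4 in WT and 20.6 and 22.2 in Trim28 KO. Most of it was Slc43a3, at 19.5 and 24.2 in WT and 17.4 and 18.5 in Trim28 KO. That gene was not called and carries purine bases, so the sum is mostly not of amino acid carriers.

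Of the 3 Slc43 genes, Slc43a1 fell and the other 2 did not pass the test. That is 33.3% lower, beside 8.77% of all genes tested, and 3 genes give a coarse share. Slc43a1 encodes LAT3, a facilitated transporter of leucine and other large neutral amino acids, and lies on the plus strand of chromosome 2 (84838850 to 84863594). It stood at 22.6 and 26.8 CPM in WT and at 12.6 and 14.7 CPM in Trim28 KO. Both knockout libraries were lower than both WT libraries. The fall was 1.81-fold (-0.86 ± 0.20, adjusted p = 0.00371), and the call was lost without Trim28 KO 1 (adjusted p = 0.0936). Slc43a1 is also known from maturing red cells, whose markers were lower in Trim28 KO as given above, and their part in this fall was not tested.

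Slc43a2, the related transporter LAT4, stood at 13.1 and 14.2 CPM in WT and 10.1 and 10.9 CPM in Trim28 KO (-0.38 ± 0.21, adjusted p = 0.228). Slc43a3, which carries purine bases and not amino acids, stood at 87.1 and 108 CPM in WT and 77.8 and 82.7 CPM in Trim28 KO (-0.28 ± 0.20, adjusted p = 0.356). Neither gene's groups overlapped, and all 3 genes of the family had fold changes below 0. Of the large neutral amino acid transporters, Slc7a5 therefore rose while Slc43a1 fell. Slc43a1 and Slc43a3 are near neighbours on chromosome 2, the latter from 84936579 to 84958509.

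Ordered by level per kilobase, the most abundant transporter genes in WT were Slc38a2 (42.1 CPM per kb), Slc3a2 (29.9), Slc38a10 (29.6) and Slc43a3 (21.9). In Trim28 KO the order began with Slc1a4 (58.4), Slc3a2 (50.8), Slc38a2 (39.7) and Slc38a10 (39.5). Slc1a4 was seventh in WT, at 10.8 CPM per kb. In WT the neighbours Slc3a2 and Slc38a10 did not differ beyond their spread, with 31.6 and 28.1 against 33.4 and 25.7 CPM per kb. Slc1a4 alone held 5.19% and 5.28% of the summed level of the 27 genes in WT and 19.2% and 20.3% in Trim28 KO. The exon lengths used for this scale cover all annotated transcripts of a gene, with 17236 bases for Slc38a1 and 16704 for Slc38a9 among them. Which of these exons were used was not measured, so orders and ratios between genes hold for these lengths only, whereas the length cancels when 1 gene is compared between genotypes.

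**Figure D4:**
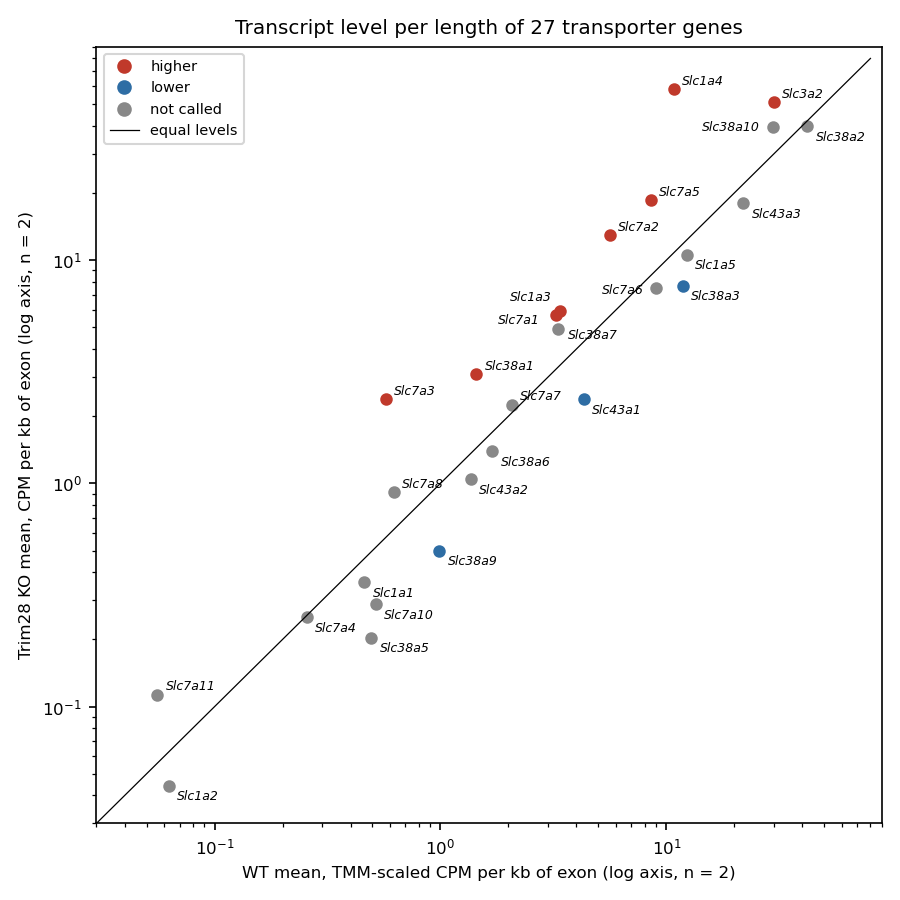
Mean level per kilobase of exon in WT (horizontal) and Trim28 KO (vertical) for the 27 transporter genes, in TMM-scaled CPM per kb on log axes, n = 2 libraries per genotype, with a line of equal levels. Slc1a4 stands farthest above the line, from 10.8 to 58.4 CPM per kb, and Slc38a2 lies on it (42.1 and 39.7).

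The transporters act beside other genes that carry, sense or use amino acids, and 6 lists of these were counted in the same fit. Of 17 tested amino acid carriers from other families, 5 rose and 1 fell, or 29.4% and 5.88%, beside 8.64% and 8.77% of all genes. Their median log2 fold change was 0.27, and 0.47 without WT 2, against -0.02 for all genes. Slc6a17, a carrier of neutral amino acids known from synaptic vesicles, rose from a mean of 8.16 to 29.0 CPM (1.83 ± 0.20), and the glycine transporter gene Slc6a9 from 9.45 to 18.7 CPM (0.98 ± 0.21). Slc25a44, the mitochondrial carrier of branched-chain amino acids (0.77 ± 0.18), Slc15a4, a lysosomal carrier of histidine and peptides (0.76 ± 0.20), and Slc16a10, a carrier of aromatic amino acids (0.77 ± 0.23), also rose. Slc36a2, a proton-coupled carrier of small amino acids, fell from 3.96 to 0.305 CPM (-3.67 ± 0.47). All 6 adjusted p-values were at or below 0.0207, the value of Slc16a10. Without Trim28 KO 2, 2 of these carriers were called higher.

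When amino acids run short, uncharged tRNA activates the kinase GCN2, translation of the transcription factor ATF4 goes up, and ATF4 activates genes of amino acid synthesis and import. Of 28 genes of this amino acid response, transporters left out, 14 rose and 1 fell. These are 50% and 3.57%, beside 8.64% and 8.77% of all genes. The median log2 fold change of 0.50 ran from 0.41 (stricter filter) to 0.58 (without WT 2) over the alternatives. The 6 genes with the smallest p-values all rose. Chac1, a glutathione-degrading enzyme, went from a mean of 3.59 to 20.8 CPM (2.54 ± 0.23), Stc2, a secreted glycoprotein, from 24.6 to 106 CPM (2.11 ± 0.20), and Trib3, a pseudokinase, from 2.11 to 13.5 CPM (2.67 ± 0.26). The transcription factor gene Atf5 went from 38.5 to 83.8 CPM (1.12 ± 0.20) and the lipoprotein receptor gene Vldlr from 29.9 to 61.9 CPM (1.05 ± 0.19). The hormone gene Fgf21 went from 0.209 to 2.88 CPM (3.75 ± 0.53). Its WT values, 0.266 and 0.152 CPM, lay near the level of 3 counts (0.151 to 0.159 CPM). The fall was in Cth, which makes cysteine from cystathionine (-1.17 ± 0.28, adjusted p = 0.00427). Atf4 itself, named after its value was seen, was not called (0.40). In all, 13 listed genes were not called, among them Psat1 (0.18), Psph (0.22), Mthfd2 (0.23), Pycr1 (-0.04) and Eif2ak4, the gene of GCN2 (-0.32). Phgdh (0.89), Asns (0.67), Shmt2 (0.62) and Aldh18a1 (0.57) were called higher. The name of the list states why its genes were chosen. Whether amino acids ran short in these cells, or GCN2 was active, was not tested. Whether ATF4 has a part in the values of the transporter genes was not tested.

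Of 35 tested genes that report amino acids to mTORC1, 4 rose and 1 fell, 11.4% and 2.86% beside 8.64% and 8.77% of all genes. The median of 0.08 ran from -0.024 (without Trim28 KO 1) to 0.15 (library size alone) over the alternatives. Sesn2, a leucine sensor that is also in the list above, rose (1.01 ± 0.21), as did Lamtor1, the lysosomal anchor of the Ragulator complex (0.82 ± 0.20), and the Rag GTPase genes Rragd (1.003 ± 0.268) and Rragc (0.63 ± 0.19). Mios, a subunit of the GATOR2 complex, fell (-0.65 ± 0.19). Slc38a9, which acts at the same lysosomal platform, fell as given above. The counts of this list were small and moved when single libraries were left out, to between 1 and 5 higher and between 0 and 1 lower.

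Of 17 tested enzymes of glutamine, glutamate, aspartate and proline metabolism, 4 rose and 1 fell, 23.5% and 5.88% beside 8.64% and 8.77% of all genes (median 0.19, and 0.12 without Trim28 KO 1). Got1, the cytosolic aspartate aminotransferase, went from a mean of 12.6 to 30.0 CPM (1.26 ± 0.21), and Gpt2 (0.92 ± 0.19), Asns, which makes asparagine (0.67 ± 0.19), and Aldh18a1, which starts proline synthesis (0.57 ± 0.19), also rose. Gpt2, Asns and Aldh18a1 are in the amino acid response list too. Prodh, which breaks down proline, fell from 2.96 to 1.12 CPM (-1.40 ± 0.39). Without WT 1, Trim28 KO 1 or Trim28 KO 2, 2 of these enzymes were called higher and 0 lower.

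Of 19 genes that use cystine for glutathione or act in redox control, 3 rose and 2 fell, 15.8% and 10.5% beside 8.64% and 8.77% of all genes. The median of 0.05 ran from 0.033 (upper-quartile factors) to 0.28 (stricter filter) over the alternatives, and was 0.14 without WT 1, 0.085 without Trim28 KO 1 and 0.13 without Trim28 KO 2. Srxn1 (1.57 ± 0.20) and Hmox1, which encodes haem oxygenase (0.85 ± 0.19), rose beside Chac1, and the quinone reductase gene Nqo1 fell (-0.82 ± 0.18) beside Cth. Of 15 enzymes that break down branched-chain amino acids, 0 rose and 1 fell, 6.67% lower beside 8.77% of all genes. The median of -0.07 ran from -0.13 (without Trim28 KO 1) to 0.0059 (without WT 2) over the alternatives. The fall was in Ppm1k, the phosphatase that activates the branched-chain keto acid dehydrogenase (-0.78 ± 0.21, adjusted p = 0.0126), and it was not called without WT 2, Trim28 KO 1 or Trim28 KO 2.

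**Figure D5:**
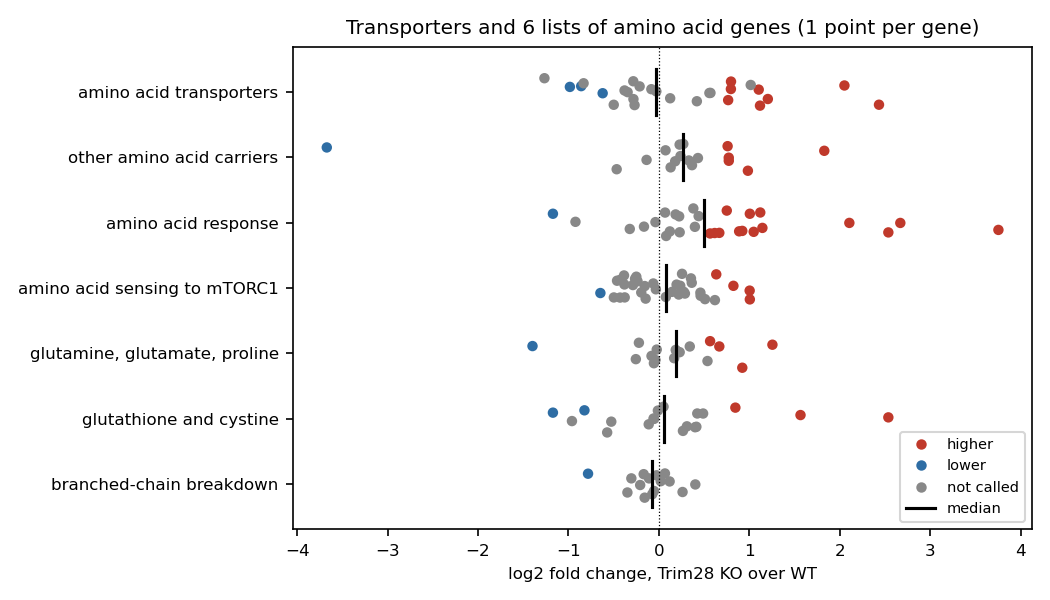
Log2 fold change of Trim28 KO over WT for the 27 transporter genes and for 6 lists of genes that carry, sense or use amino acids, with 1 point per tested gene, red for higher, blue for lower and grey for not called, and a black line at each median. The amino acid response list has the highest median (0.50, and 0.41 to 0.58 over the alternatives). The transporter genes lie on both sides of 0 with a median of -0.03. That median turned positive (0.13 to 0.24) without WT 1, WT 2 or Trim28 KO 1 and with the stricter filter.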

How the data were processed

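Total RNA from 4 libraries of E17.5 rib cartilage cells was sequenced, and genotypes came from the sample titles. The authors deposited raw counts per gene name. Per the file headers, featureCounts 1.6.4 counted fragments of read pairs over the exons of GENCODE M23 (build mm10), with no option for strand, for reads mapping to several places or for reads over several genes, so antisense partners cannot be told apart and reads in shared exons were not counted. The deposited length, exonic bases per gene and of another unit than the counts, gave levels per kilobase. The submitters' processing notes also name Subread 1.6.4 and edgeR. The aligner is not given in the sources used here. Positions and exon overlaps were taken from GENCODE M21, whose assembly GRCm38 is that of mm10. Called genes shared at most 6.95% of their exon bases with another gene, Slc7a2 with Gm26584, which had 0 counts.

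Genes passing filterByExpr (16639) were scaled by TMM and tested with edgeR's quasi-likelihood test (edgeR 4.0.16, R 4.3.3, robust, no covariate), Benjamini-Hochberg adjusted over all genes tested and called at an adjusted p under 0.05. The standard error is the log2 fold change divided by the square root of F. Counts simulated for this comparison gave 162 calls among 16302 genes, 18 of them false. The calls took in 50.6% of the 85 simulated 2-fold changes and 90.2% of the 112 simulated 4-fold ones. Far more genes (2898) were called in the data, and these shares were not measured in such a setting. A count of 3 is 0.151 to 0.159 CPM. Counting floors cover counting error only. Replicates of a genotype were further apart than sampling noise (31.0 in WT and 24.9 in Trim28 KO as chi-square per degree of freedom).

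The transporter genes, lists, markers and motifs were chosen with earlier results of these data known, so a list's count is not independent evidence. The rule for names took every transporter gene, up to 6 called genes of each list by smallest p, and Trim28. Alternatives were other scaling factors (RLE, upper quartile, library size alone), no filter, a filter of 5 CPM in 2 libraries, DESeq2 1.42.0, limma-voom 3.58.1, no robust estimate, a replicate block, leaving out each library, a minimum of 100 counts per transporter gene, and shorter promoter windows.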

Additional observations from a re-analysis of the deposited data

How the results depend on the processing

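Of the 11 called transporter genes, 5 that rose (Slc1a4, Slc7a3, Slc7a2, Slc7a5 and Slc38a1) and 1 that fell (Slc38a9) were called under all 13 alternatives of scaling, filter, tool, block and left-out library. The numbers of transporter genes called, 8 higher and 3 lower, ranged from 6 to 9 and from 1 to 3 when 1 library was left out, and the low values came without Trim28 KO 1, where Slc1a3, Slc3a2, Slc43a1 and Slc38a3 lost their calls. Over all genes, 702 to 1442 were called higher and 572 to 1406 lower with 1 library left out, with the lowest counts without Trim28 KO 1 and 906 and 807 without Trim28 KO 2. Slc38a7 was called with RLE factors (adjusted p = 0.0476), library size alone (0.0321), no filter (0.0402), the replicate block (0.0472) and without WT 1 (0.0388).

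Uncalled genes changed sign: Slc1a1 without Trim28 KO 1 (0.14), Slc1a5 without WT 1 (0.13), Slc38a2 without WT 2 (0.25) and without Trim28 KO 1 (0.02), Slc7a6 without WT 2 (0.085), and Slc7a4 with library size alone (0.039) and without WT 1 (0.14). With 1 library left out, the lowest values of these genes were -1.07 for Slc1a1, -0.45 for Slc1a5, -0.31 for Slc38a2, -0.52 for Slc7a6 and -0.14 for Slc7a4. The cause was not tested. Of 344 values of transporter genes under alternatives, 325 kept both direction and call.

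The median log2 fold change of the transporter genes, -0.03, lay between -0.04 and 0.24 with 1 library left out and was 0.24 with the stricter filter and 0.039 with library size alone.

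The replicate numbers are shared by the genotypes, but deviations of same-numbered libraries did not go together (correlation over genes of -0.08), so the block is given here only: 9 transporter genes were higher and 3 lower with the replicate block, and 1477 and 1444 over all genes.

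Counts of the smaller lists moved by over 1.5 times in these cases. With the stricter filter, 0 other carriers, 0 glutamine to proline enzymes and 2 mTORC1 genes were called lower. For the amino acid response, 2 were called lower with library size alone, no filter, DESeq2, limma-voom, no robust estimate and the replicate block. With the block, 2 mTORC1 genes were lower, and with DESeq2 0 glutamine to proline enzymes were lower. With 1 library left out, other carriers had 2 to 5 higher and 1 lower, the amino acid response 10 to 13 higher and 0 to 2 lower, mTORC1 genes 1 to 5 higher and 0 to 1 lower, glutamine to proline enzymes 2 to 4 higher and 0 to 1 lower, glutathione genes 2 to 4 higher and 1 to 2 lower, and branched-chain enzymes 0 higher and 0 to 1 lower. Depth limits genes with under 100 counts, such as Slc7a11 and Slc38a5, and none of the called genes was among them.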
